A study of Homo sapiens with 18 samples.

Results

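Gene expression was compared in NCI-H1693 cells that had been in the SMARCA2 degrader PRT3789 for 48 h and in cells that had been in it for 6 h, over every gene of the count table. The comparison rests on 6 of the 18 libraries of the series, 3 at each time. NCI-H1693 is an established cell line of human non-small cell lung cancer, SMARCA4-deficient per the labels. PRT3789 was given at 50 nM. The other 4 groups were PRT3789 at 50 nM for 72 h and DMSO, the solvent without degrader, for 6, 48 and 72 h, again with 3 libraries each. All groups are the same line, so the control cells carry the same SMARCA4 status as the treated cells. The libraries were made from polyadenylated RNA of frozen cell pellets and read as stranded pairs of 150 bp. The cells of the 6 h group had already spent 6 h in the degrader, so the comparison follows the course within treated cells and leaves out what had changed by then. DMSO at 48 h against DMSO at 6 h measured the change over culture time without degrader, together with any other difference between those libraries. The difference between the time changes of PRT3789 and DMSO was tested itself. No label says that the replicates came from separate cultures, and the p-values then measure only the spread between these samples, which may be technical.

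SWI/SNF complexes use the energy of ATP to slide or evict nucleosomes, which opens enhancers and promoters to transcription factors. SMARCA2 and SMARCA4 are alternative motor subunits of these complexes, and a cell that has lost SMARCA4 depends on SMARCA2 for what remains of this activity. A degrader brings its target protein to a ubiquitin ligase, so that the proteasome destroys the protein while the gene goes on being transcribed.

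The libraries of the comparison and its DMSO background held 23154484 to 31094797 counts. Levels are given as counts relative to library size (CPM), with library sizes scaled by trimmed mean of M values (TMM) factors. They are not divided by gene length, so they compare one gene between libraries and not one gene with another. All 10 epithelial identity markers were tested, and their summed level lay between 8744 and 9756 CPM in the PRT3789 libraries of 6 h and between 5392 and 5616 CPM in those of 48 h, with KRT8 and KRT18 as the largest parts. Of 20 blood cell markers 6 passed the filter on low counts, their sum was 13 to 15.6 CPM at 6 h and 6.26 to 6.72 CPM at 48 h, most of it from CD68, and HBA1, HBB and NKG7 were among those with no count. Of 15 endothelial and fibroblast markers 9 passed, with a sum of 134 to 153 CPM at 6 h and 101 to 108 CPM at 48 h, most of it from LUM, the matrix proteoglycan lumican. The part of these cells' RNA in the results was not tested.

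The libraries also differed in ways that the groups do not give. A set of 11 genes around the keratin KRT14 was near 0 in most libraries and high in others of the same group: KRT14 had 0, 2 and 174 counts in the PRT3789 libraries of 6 h and 3, 0 and 1 at 48 h. A set of 17 genes around CLEC4E, a lectin receptor, which also held MMP7, SPP1, CXCL8 and IL6, behaved likewise, with 0, 105 and 94 CLEC4E counts at 6 h and 0, 0 and 1 at 48 h. Another set, of 8 genes around the surfactant gene SFTPA2, had 139, 149 and 107 SFTPA2 counts at 6 h and 0, 0 and 130 at 48 h. Each set was high in 6 of the 18 libraries, DMSO libraries included, and the labels give no reason for the division. In the comparison of 48 h with 6 h, 5 of the 11, 11 of the 17 and 2 of the 8 genes were called lower and none of the 36 was called higher by edgeR, so these calls depend on which libraries were high and are not described further. The part of these libraries in other results was not tested, and list counts that move by more than 1.5 times without the libraries high in KRT14 or CLEC4E are therefore given both ways in the PRT3789 comparison.

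**Figure D1:**
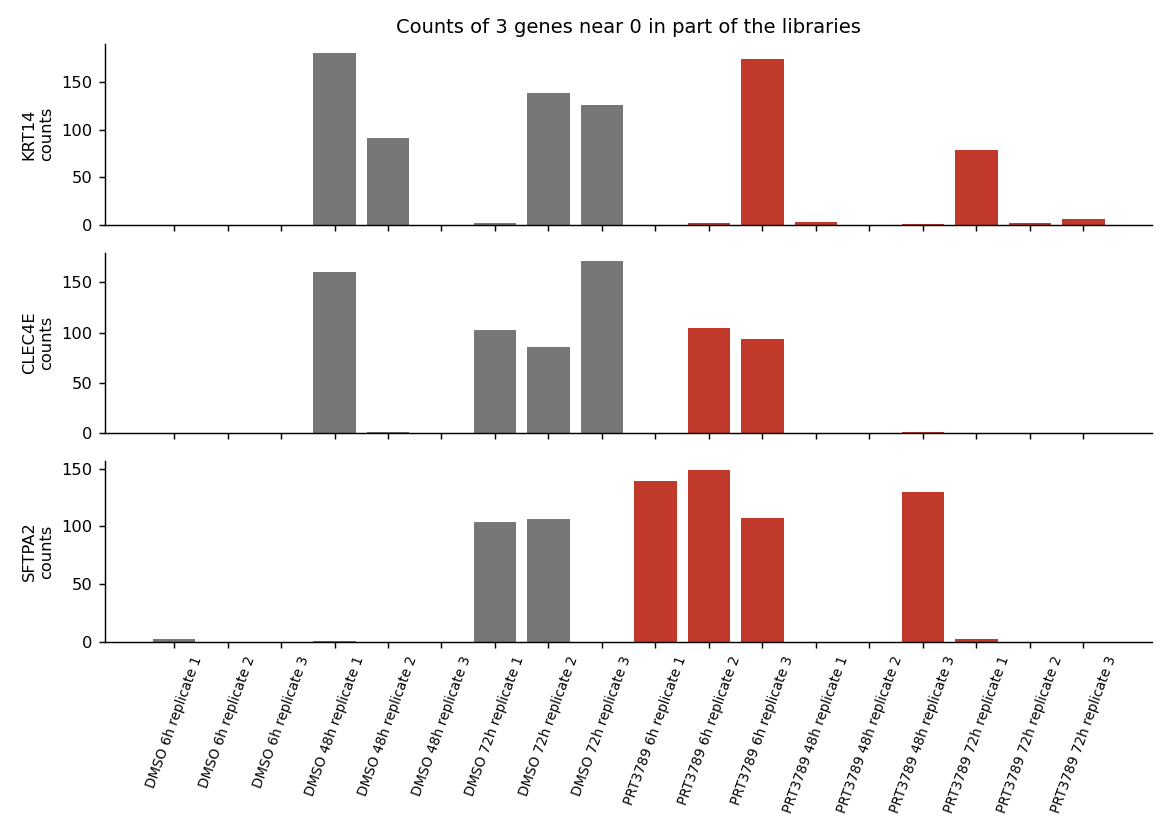
Deposited counts (vertical axes) of KRT14, CLEC4E and SFTPA2 in each of the 18 libraries (horizontal axis; grey, DMSO; red, PRT3789). KRT14 reached 174 counts in the third PRT3789 library of 6 h and 0 and 2 in the others of that group, and SFTPA2 reached 130 counts in the third PRT3789 library of 48 h and 0 in the others.

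From 6 to 48 h in PRT3789, 4109 of 15940 tested genes (25.8%) were called higher and 4232 (26.5%) lower at an adjusted p under 0.05, 52.3% in all (edgeR quasi-likelihood F test, two-sided, Benjamini-Hochberg adjustment over all tested genes). A change of at least 2-fold was reached by 1269 of the genes called higher (7.96%) and by 1245 of those called lower (7.81%). Over the same interval in DMSO, 2367 genes (14.8%) were called higher and 2442 (15.3%) lower, 30.2% in all, and 455 (2.85%) and 231 (1.45%) of them by at least 2-fold. The principal component with the largest share of the variance (59.8%) put the PRT3789 libraries of 48 h at 59.1 to 61.3 and the other 9 libraries between -42.5 and 0.903. With total counts in place of TMM factors, the share of higher genes among those called was 59.3% in place of 49.3% in PRT3789 and 66.1% in place of 49.2% in DMSO, and the median of all genes moved to 0.12 and 0.10 on the log2 scale.

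Part of the course in PRT3789 was shared with culture in DMSO and part was not. The time change differed between the treatments for 2265 genes (14.2%), of which 932 (5.85%) were higher and 1333 (8.36%) lower with PRT3789 by edgeR's test of the difference, 333 (2.09%) and 626 (3.93%) of them by at least 2-fold. Genes called higher in PRT3789 and also higher in that difference numbered 858 (5.38%), and the corresponding falls numbered 1127 (7.07%). In all, 1604 genes (10.1%) rose and 1999 (12.5%) fell in both treatments. Of these, 1326 genes (8.32%) and 1683 (10.6%) had no call in the difference. Another 3330 genes (20.9%) were called in PRT3789 and not in DMSO without a call in the difference, and for these no difference between the treatments was shown. Without the libraries in which KRT14 or CLEC4E exceeded 1 CPM, a reduced set of 1 PRT3789 library of 6 h, all 3 of 48 h, 3 DMSO libraries of 6 h and 1 of 48 h, 2356 genes were called higher and 2650 lower in PRT3789. Of the 8341 genes called with every library 8326 were tested there and kept their sign, 58.9% kept their call, and their log2 fold changes moved by a median of 0.0664. In DMSO, where 1 library of 48 h is left, the counts were 564 higher and 367 lower, and in the difference 195 and 405.

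**Figure D2:**
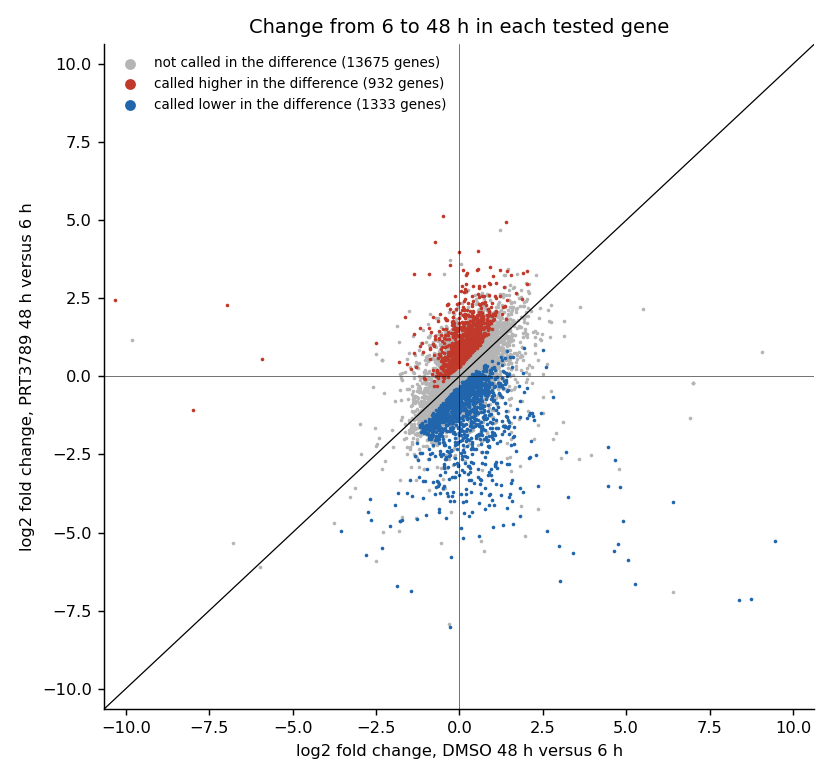
Each point is 1 of 15940 tested genes, with the log2 fold change from 6 to 48 h in DMSO (horizontal axis) and in PRT3789 (vertical axis); the diagonal marks equal change. The 932 genes called higher in the difference (red) lie above the diagonal and the 1333 called lower (blue) below it; points beyond 4 on the horizontal axis include genes that were near 0 in part of the libraries.

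**Figure D3:**
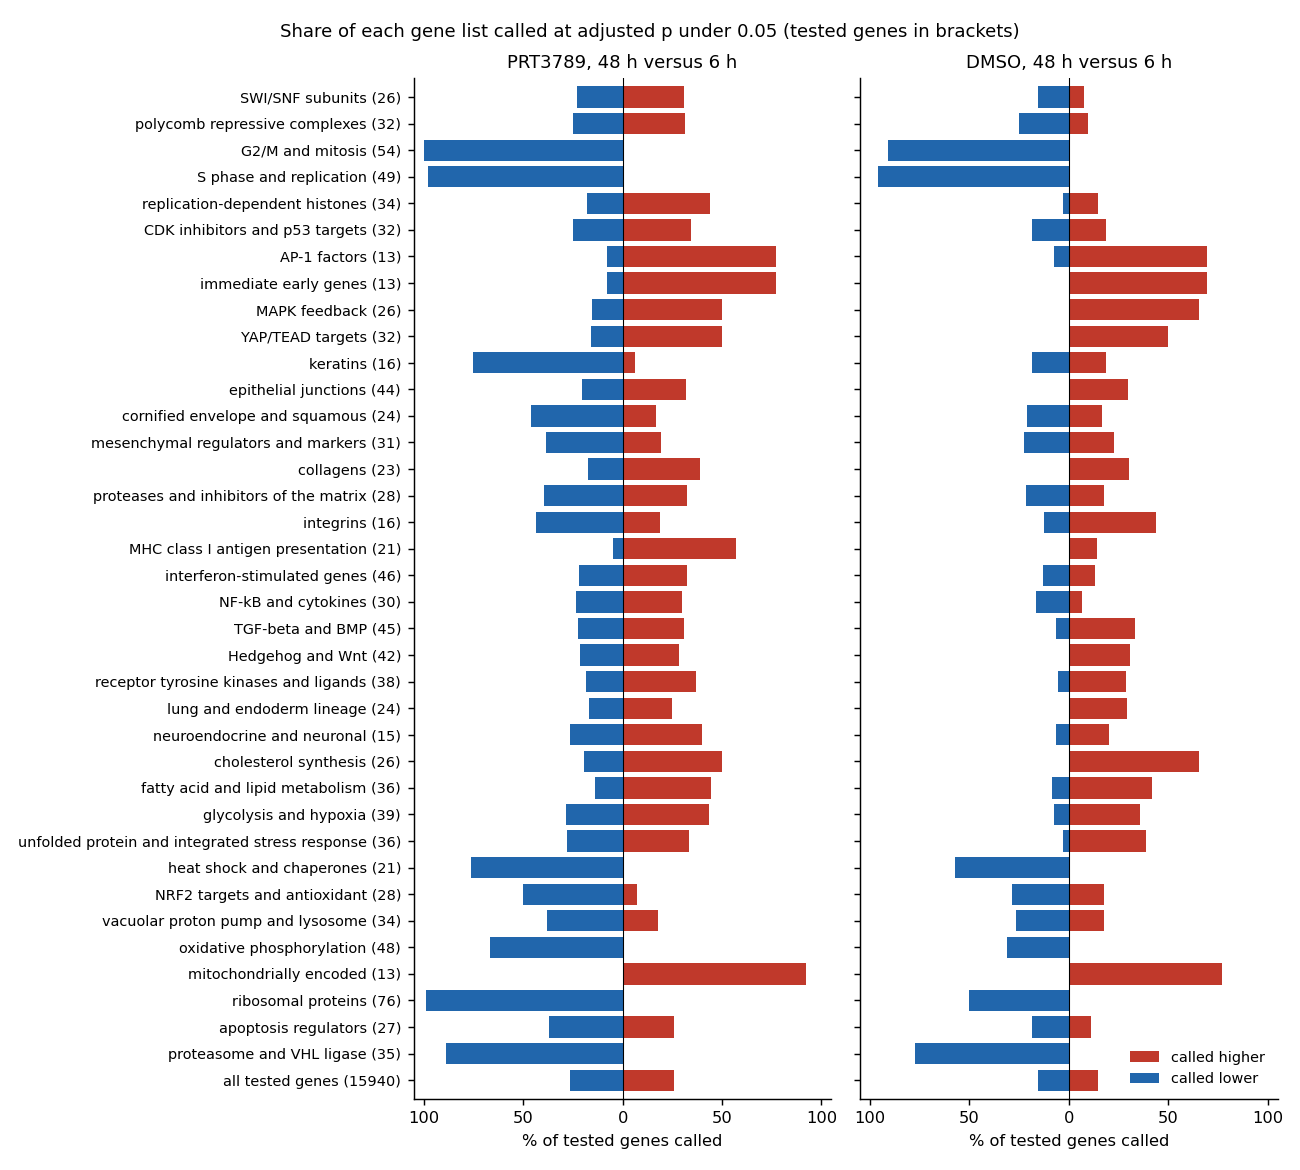
Percent of the tested members of each gene list with at least 13 of them that were called higher (red, to the right) or lower (blue, to the left) from 6 to 48 h in PRT3789 and in DMSO, with all tested genes in the lowest bar. G2/M and S phase genes were called lower in both treatments, while keratins were mostly called lower in PRT3789 and MHC class I genes were called higher there.

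The transcript of the degrader's target did not pass the test. SMARCA2 stood at 42.4, 44.3 and 34.6 CPM in the 3 libraries of 6 h and at 39.1, 34.9 and 36.9 CPM in those of 48 h, values that overlapped (log2 fold change -0.12 ± 0.11 (SE), edgeR adjusted p = 0.351). SMARCA4 had 7.53, 7.05 and 7.90 CPM and then 9.47, 10.2 and 11 CPM, without overlap and with an edgeR adjusted p of 0.0629. These are transcript levels and say nothing of the SMARCA2 protein, on which the degrader acts. Among 26 tested SWI/SNF subunits 8 rose and 6 fell, with a median log2 fold change of 0.08 against 0.01 over all tested genes. Of all tested genes 25.8% rose and 26.5% fell. ACTL6A, an actin-related subunit of the complexes, fell by 1.16 ± 0.11 (SE) on the log2 scale from 124, 115 and 140.3 CPM to 55.9, 60.2 and 53.5 CPM. SMARCB1, a core subunit, fell by 0.49, and SMARCD3, an accessory subunit, rose by 1.28 on the log2 scale. In DMSO 2 of the subunits rose (7 without the first DMSO library of 6 h) and 4 fell, and the change differed between treatments for ACTL6A, SMARCB1, SMARCD2 and BRD7, each lower with PRT3789, BRD7 being named after its value was seen. Of all tested genes 14.2% were called in the difference and 8.36% were called lower there. The differences of these 4 subunits ran from -0.52 (ACTL6A) to -0.32 (SMARCB1) on the log2 scale. The count fell to 1 or 2 without any single one of 7 libraries, among them the first and the third PRT3789 libraries of 6 h and the first and second of 48 h, and to 0 without the third PRT3789 library of 48 h. In the reduced set, 5 subunits rose and 5 fell in PRT3789, 0 and 1 were called in DMSO and none in the difference.

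Nearly all genes of cell division fell. Of 54 tested genes of G2 phase and mitosis 54 fell in PRT3789 between 6 and 48 h, with a median log2 fold change of -1.40, and of 49 tested genes of S phase and replication 48 fell, with a median of -1.35. CDCA8, the borealin subunit of the chromosomal passenger complex, went from 113, 119 and 123 CPM at 6 h to 36.1, 37.5 and 35.3 CPM at 48 h. The groups did not overlap, and the fall was 1.70 ± 0.07 (SE) on the log2 scale (edgeR adjusted p = 5.2e-09). CCNA2, cyclin A2, went from 167, 149 and 153 CPM to 54.3, 53.7 and 48.1 CPM, a log2 fold change of -1.58 ± 0.08 (edgeR adjusted p = 2.1e-08). HJURP, the chaperone that loads the centromeric histone, fell by 1.60 and KIF2C, a kinesin that takes microtubules apart at kinetochores, by 1.46 on the log2 scale. Among the replication genes, POLA2, a subunit of the primase complex, went from 74.9, 78.9 and 78.2 CPM to 26.6, 26.2 and 25.9 CPM, again without overlap. FEN1, which trims Okazaki fragments, fell by 1.57, E2F1, a transcription factor of the G1 to S transition, by 1.56, and RRM2, a ribonucleotide reductase subunit, by 1.44 on the log2 scale.

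The division genes also fell in DMSO, by less for most G2/M genes. In DMSO 49 of the 54 G2/M genes and 47 of the 49 S phase genes were called lower, with medians of -0.64 and -0.96. The difference of the time changes was called lower with PRT3789 for 45 of the 54 G2/M genes and for 15 of the 49 S phase genes, the second count being 9 without the second DMSO library of 6 h, the first PRT3789 library of 6 h or the third PRT3789 library of 48 h. CDCA8 held 66.8, 67.6 and 70.2 CPM in DMSO at 48 h after 112, 122 and 115 CPM at 6 h, and the difference of its time changes was -0.92 ± 0.09 (SE; edgeR adjusted p = 4.44e-05). CDK1, the kinase that drives entry into mitosis, fell by 1.88 in PRT3789 and 1.27 in DMSO, a difference that did not pass (edgeR adjusted p = 0.0916). SPC25, CDC45 and CENPP were likewise among the largest falls shared by both treatments, with log2 fold changes of -1.84, -1.82 and -1.80 in PRT3789. At 72 h CDCA8 stood at 34.8, 33.4 and 36.3 CPM in PRT3789, close to its level at 48 h. With the reduced set, 52 of the 54 and 45 of the 49 genes were called lower in PRT3789, and 27 and 38 in DMSO. The difference was then called lower for 27 of the 54 G2/M genes and 2 of the 49 S phase genes, with medians of -0.87 and -0.38 against -0.74 and -0.34 with every library.

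**Figure D4:**
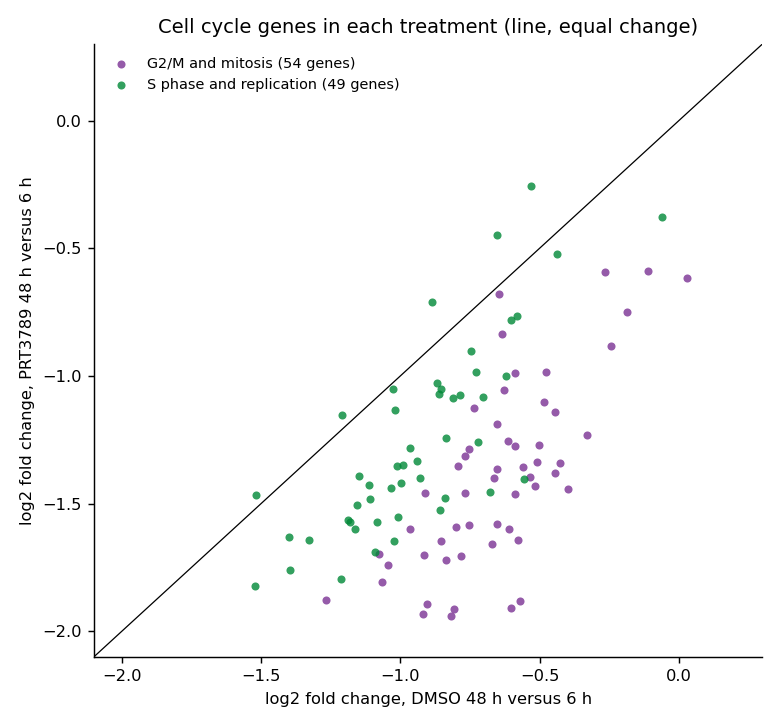
Log2 fold change from 6 to 48 h in DMSO (horizontal axis) and in PRT3789 (vertical axis) for 54 G2/M genes (purple) and 49 S phase genes (green); the line marks equal change. The points lie below 0 in PRT3789, with medians of -1.40 and -1.35, and most lie under the line.

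Promoters of many G2/M genes share short sequences, which are shown because these genes moved together. The S phase list, which fell as well, was not searched as a group. TTTGAA is the letter core of the CHR element and CCAAT the box bound by NF-Y, and both strands of the window from 250 bases before to 50 after the transcription start were searched (RefSeq, GRCh38.p14). TTTGAA lay in 30 of 44 G2/M promoters on record (68.2%) and in 9.73% of 12318 promoters of tested genes, and CCAAT in 34 of 44 (77.3%) and in 36.3% of all. The windows of CDCA8 (chr1:37692266-37692565, plus strand), HJURP (chr2:233854486-233854785, minus strand) and CCNA2 (chr4:121823834-121824133, minus strand) follow, with matches to either motif on either strand in capitals, read 5′ to 3′ along the gene. In CDCA8 a TTTGAA overlaps a reversed CCAAT.
CDCA8: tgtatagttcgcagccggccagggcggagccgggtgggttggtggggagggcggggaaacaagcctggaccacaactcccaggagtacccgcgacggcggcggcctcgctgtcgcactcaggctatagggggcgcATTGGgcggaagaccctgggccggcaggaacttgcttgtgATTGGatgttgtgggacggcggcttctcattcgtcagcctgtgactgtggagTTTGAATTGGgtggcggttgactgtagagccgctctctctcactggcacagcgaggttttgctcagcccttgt
HJURP: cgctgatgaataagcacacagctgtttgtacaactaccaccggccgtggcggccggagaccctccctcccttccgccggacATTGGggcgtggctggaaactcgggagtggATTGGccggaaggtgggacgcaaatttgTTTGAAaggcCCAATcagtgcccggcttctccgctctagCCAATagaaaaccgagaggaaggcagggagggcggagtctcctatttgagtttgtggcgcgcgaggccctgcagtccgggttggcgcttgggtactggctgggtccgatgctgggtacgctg
CCNA2: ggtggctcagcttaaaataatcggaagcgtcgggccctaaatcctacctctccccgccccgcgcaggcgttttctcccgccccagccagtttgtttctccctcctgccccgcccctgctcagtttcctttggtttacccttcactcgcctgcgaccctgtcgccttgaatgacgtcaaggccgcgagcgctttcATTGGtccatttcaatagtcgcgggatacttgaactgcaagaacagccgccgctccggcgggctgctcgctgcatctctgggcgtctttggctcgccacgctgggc
CDCA8 holds 1 TTTGAA and 3 CCAAT matches, HJURP 1 and 4, and CCNA2 a single CCAAT. The window of KIF2C, which fell as well, holds neither. A match is a description of the letters and not a mapped binding site.

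The inhibitors of cyclin-dependent kinases did not move together. CDKN2B, the inhibitor p15, rose from 91.9, 95.2 and 87.7 CPM to 267, 254 and 256 CPM, a log2 fold change of 1.50 ± 0.07 (edgeR adjusted p = 1.04e-08), with a rise of 0.71 in DMSO. CDKN1A, the inhibitor p21 and a target of p53, went from 41.3, 42.5 and 41.0 CPM to 16.2, 16.3 and 16.4 CPM and fell by 1.35 on the log2 scale (edgeR adjusted p = 1.74e-08). CDKN1A was at 60.0, 60.7 and 63.8 CPM in DMSO at 6 h, so the treated cells were below their controls already at that time. CDKN2C, the inhibitor p18, fell by 1.42. PLK2, a stress-responsive polo-like kinase, rose from 76.7, 73.0 and 71.5 CPM to 250.4, 254 and 255 CPM. CCND1, cyclin D1, rose by 2.01 on the log2 scale, from 141, 160.0 and 111 CPM to 562, 526 and 564 CPM. Of the 32 tested CDK inhibitors and p53 targets 11 rose and 8 fell in PRT3789, with a median of -0.05, where 25.8% of all tested genes rose and 26.5% fell. In DMSO 6 of the 32 rose and 6 fell, and the difference was called higher with PRT3789 for 4 and lower for 3. Among 34 tested replication-dependent histone genes 15 rose and 6 fell, with a median of 0.59, and 3 fell without the second PRT3789 library of 6 h and 0 of 40 tested in the reduced set. These mRNAs mostly end without a poly(A) tail, so a poly(A) library sees only part of them, and reads of near-identical histone genes may be split between copies.

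Keratins and genes of squamous differentiation were among the deepest falls. Of 16 tested keratins 12 fell and KRT4, near 0 CPM at both times, was called higher, with a median log2 fold change of -2.31, against 3 higher and 3 lower in DMSO, where 1 was called higher without the second library of 6 h and 6 without the third of 48 h. KRT81, a hair-type keratin (chr12:52285913-52291534, GRCh38.p14), went from 2157, 2093 and 2492 CPM to 263, 226 and 234 CPM. The groups were far apart, and the fall was 3.22 ± 0.11 (SE) on the log2 scale (edgeR adjusted p = 2.6e-09), against 1.20 in DMSO. KRT86, a close relative of KRT81 whose reads may be shared with it, fell by 3.52. KRT8 and KRT18, the paired keratins of simple epithelia, fell by 1.07 and 0.89, while in DMSO KRT18 rose by 0.40 and KRT8 did not pass. KRT80, a keratin linked to desmosomes, went from 142, 154 and 106 CPM to 18.8, 16.6 and 15.9 CPM in PRT3789 and stood at 429, 378 and 349 CPM in DMSO at 6 h. Its level in treated cells was thus below the controls at 6 h and fell by a further 2.97 on the log2 scale to 48 h. KRT19 did not pass, with 341 ± 12.5 CPM (SD, n = 3) at 6 h and 326 ± 3.44 CPM at 48 h.

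Of the 12 keratin falls, 3 involve the libraries described above. KRT17 had 15.6, 16.7 and 30.1 CPM at 6 h, highest in the third library, which is also high in KRT14, and 1.32, 1.33 and 1.72 CPM at 48 h. KRT5 and KRT6A belong to the KRT14 set, with 2, 3 and 352 counts of KRT6A at 6 h and 1, 1 and 1 at 48 h. In the reduced set, 9 of 15 tested keratins were called lower and none higher, and the median was -1.12. In DMSO none was then called higher and 3 lower, and the difference was lower for 6 of the 15, against 10 of 16 with every library.

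Of 24 tested genes of the cornified envelope and squamous epithelium 11 fell and 4 rose, with a median of -1.14. SPRR3, a small proline-rich protein that is crosslinked into the envelope (chr1:153001749-153003856), went from 24.4, 23.2 and 22.8 CPM to 0.427, 0.0829 and 0.132 CPM, which is 12, 2 and 4 counts. It had the deepest fall among the named genes, 6.71 ± 0.24 (SE) on the log2 scale (edgeR adjusted p = 2.6e-09), against 1.87 in DMSO. S100A9, a subunit of the calcium-binding protein calprotectin (chr1:153357854-153361023), went from 58.3, 50.1 and 95.2 CPM to 1.74, 1.08 and 1.62 CPM. KLK6, a kallikrein-related protease, went from 20.7, 22.8 and 19.5 CPM to 1.28, 0.497 and 0.861 CPM, while in DMSO its log2 fold change of -0.39 did not pass (edgeR adjusted p = 0.0547). IVL, involucrin, an envelope precursor, fell by 4.02 and SPRR1B by 5.73 on the log2 scale. The 4 that rose were SCEL, EVPL, SOX2 and TMPRSS11E, by 0.48, 1.03, 0.67 and 0.42. In DMSO 4 rose and 5 fell, and the difference was called lower with PRT3789 for 9 of the 24 and higher for TMPRSS11E. With the reduced set, 8 of 23 fell and 6 rose, with a difference called lower for 6 and higher for none.

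Junction genes of epithelia took no common direction: 14 of 44 tested rose and 9 fell, with a median of 0.04, and 6 of 43 rose and 4 fell in the reduced set. CLDN1, a tight junction claudin, rose from 73.8, 78.2 and 70.0 CPM to 231, 242 and 238 CPM, and ESRP2, an epithelial splicing regulator, by 1.27 on the log2 scale. CDH1, E-cadherin, was not called, at 171 ± 41.7 CPM (SD, n = 3) and 177 ± 7.72 CPM. CDH3, P-cadherin, fell by 0.74 and EPCAM by 0.39. VTCN1, the immune checkpoint ligand B7-H4 (chr1:117143587-117210927), fell from 16.8, 14.5 and 14.9 CPM to 0.712, 0.290 and 0.298 CPM while it rose in DMSO from 25.2, 27.5 and 21.8 CPM to 36.2, 39.1 and 38.2 CPM.

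**Figure D5:**
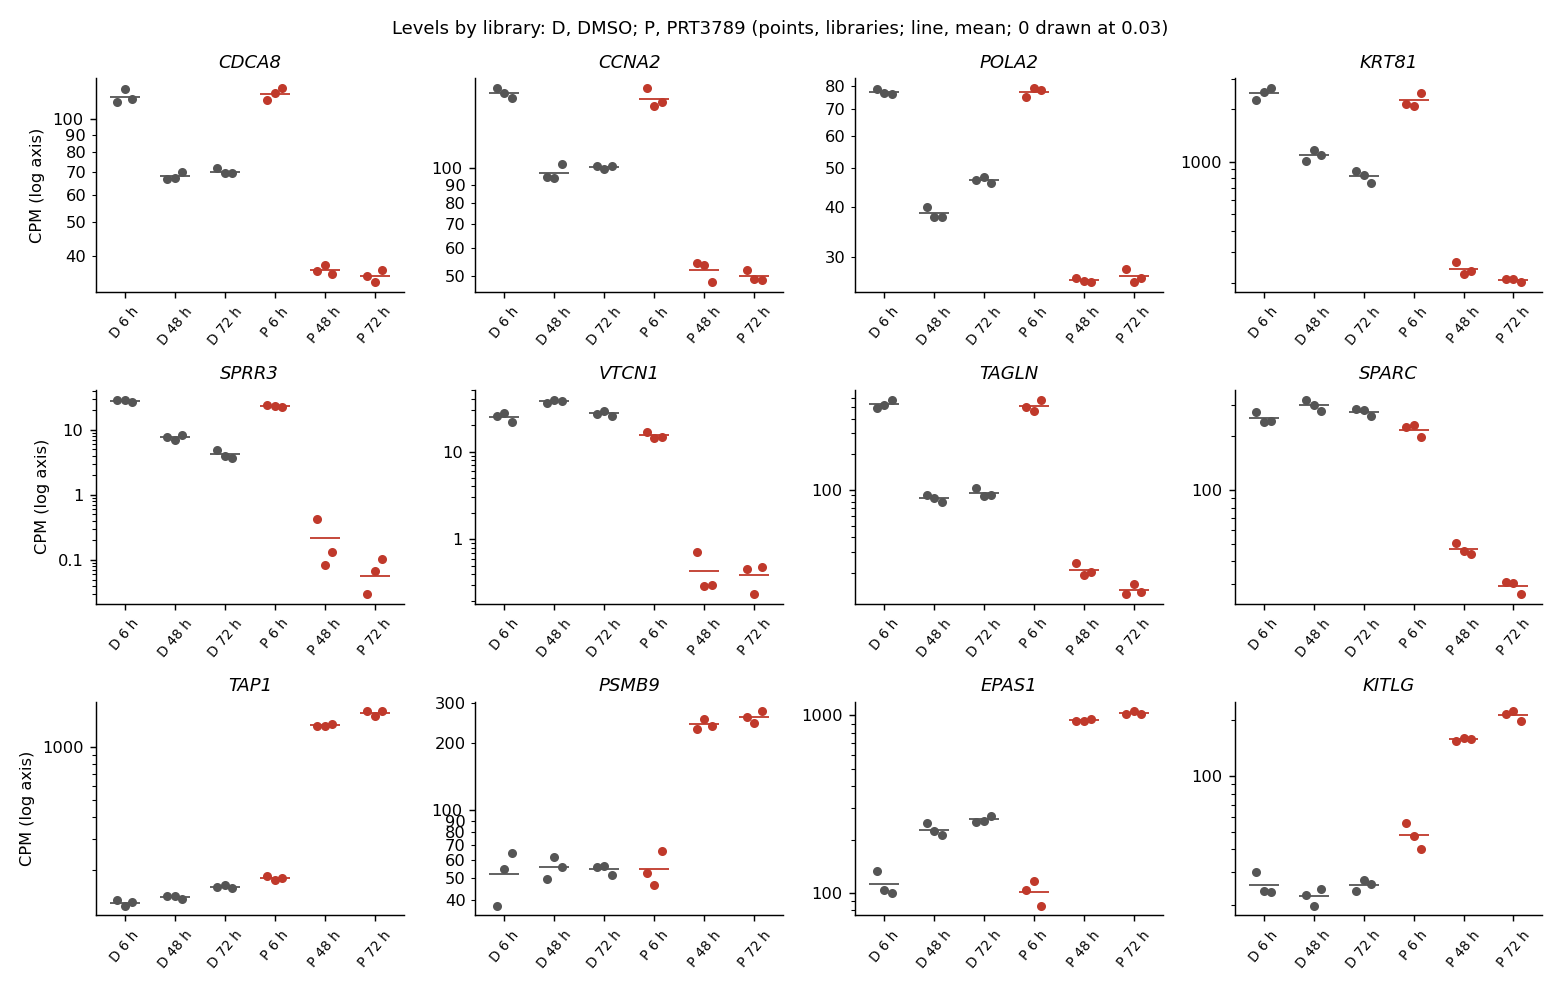
CPM (log axes) of 12 genes in each library, by treatment and time (D, DMSO, grey; P, PRT3789, red); lines are means of 3 libraries and a value of 0 is drawn at 0.03. CDCA8, CCNA2 and POLA2 fell in both treatments, whereas TAP1, PSMB9 and KITLG rose in PRT3789 and their levels in DMSO at 48 h stayed within or near those at 6 h.

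More contractile and mesenchymal genes fell than rose, and matrix genes were divided. Of 31 tested mesenchymal regulators and markers 12 fell and 6 rose (median -0.40), and the difference from DMSO was called lower for 12 and higher for 2. Without the first PRT3789 library of 48 h 3 rose, and without the first DMSO library of 48 h the difference was higher for 4. In the reduced set, 9 fell and 2 rose, and the difference was lower for 8 and higher for none. TAGLN, the actin-binding protein transgelin, went from 498, 464 and 578 CPM to 24.2, 19.1 and 20.4 CPM, without overlap. The fall was 4.59 ± 0.13 (SE) on the log2 scale in PRT3789 (edgeR adjusted p = 4.45e-10) and 2.64 in DMSO. SPARC, a matricellular protein, fell from 227, 231 and 198 CPM to 50.6, 45.5 and 43.9 CPM, whereas in DMSO it had 275, 241 and 243 CPM and then 321, 301 and 279 CPM, with every value of 48 h above those of 6 h and no call (edgeR adjusted p = 0.073). TPM1, a tropomyosin, fell by 1.76 and TGFBI, a secreted matrix protein induced by TGF-beta, by 2.45. AXL, a receptor tyrosine kinase, fell by 1.83 and LOXL2, a collagen crosslinking enzyme, by 1.25. VIM, vimentin, did not pass, at 57.8 ± 4.94 CPM (SD, n = 3) and 49.0 ± 2.41 CPM. ZEB1 and ZEB2, repressors of epithelial genes, rose by 0.63 and 0.93 on the log2 scale.

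Of 23 tested collagens 9 rose and 4 fell in PRT3789 (median 0.60). In DMSO 7 rose and 0 fell, and the difference was called higher with PRT3789 for 7 and lower for 6. The median of that difference was -0.12 with every library and 0.53 in the reduced set. It lay above 0 for 11 of 23 collagens with every library and for 14 of 23 in the reduced set. In DMSO the median change of the collagens was 0.49 with every library and 0.02 in the reduced set. COL3A1, a fibrillar collagen, went from 2.45, 3.07 and 2.69 CPM to 16.2, 13.3 and 11.8 CPM and did not pass in DMSO (edgeR adjusted p = 0.213). The basement membrane collagens split by gene pair in PRT3789. COL4A1 and COL4A2 fell by 1.37 and 1.28, while COL4A3, COL4A4, COL4A5 and COL4A6 rose by 2.39, 1.73, 2.21 and 2.63 on the log2 scale. COL4A3 was also called higher in DMSO, with no call in the difference. Among 28 tested proteases and inhibitors of the matrix 9 rose and 11 fell. MMP2, a gelatinase, went from 263, 271 and 219 CPM to 51.2, 45.4 and 44.9 CPM, and TIMP1, an inhibitor of metalloproteases, from 36.1, 36.7 and 39.6 CPM to 6.44, 7.13 and 6.89 CPM. MMP9, the other gelatinase, fell by 3.56 in PRT3789 and 3.12 in DMSO, with no call in the difference (edgeR adjusted p = 0.108). PLAU, the urokinase activator of plasminogen, fell from 178, 176 and 169 CPM to 28.8, 22.0 and 58.3 CPM; the highest of these is the library of 48 h that is high in SFTPA2. Its receptor PLAUR fell by 1.31. Of 16 tested integrins 7 fell and 3 rose: ITGB6, an epithelial integrin subunit, went from 94.0, 95.8 and 92.5 CPM to 21.2, 21.1 and 19.8 CPM, and ITGA3, a laminin receptor subunit, fell by 1.02 while it rose by 0.61 in DMSO.

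Most genes that load peptides onto MHC class I rose in PRT3789. Of 21 tested members 12 rose and 1 fell (median 0.42), against 3 and 0 in DMSO (median 0.08; 5 and 2 without the first DMSO library of 6 h), and 8 were called higher in the difference. With the reduced set, 10 rose and none fell in PRT3789, none was called in DMSO, and 4 were called higher in the difference. TAP1, a subunit of the transporter that brings peptides into the endoplasmic reticulum (chr6:32845209-32853704), went from 185, 174 and 179.7 CPM to 1314, 1318 and 1341 CPM. The 48 h values were about 7.40 times those of 6 h by the fit, with a log2 fold change of 2.89 ± 0.07 (SE; edgeR adjusted p = 3.5e-10). In DMSO TAP1 had 134, 125 and 131 CPM and then 141, 142 and 135 CPM (edgeR adjusted p = 0.332), and the difference of the time changes was 2.80 ± 0.10 (edgeR adjusted p = 1.88e-08). PSMB9, a catalytic subunit of the immunoproteasome, went from 52.7, 46.3 and 66.2 CPM to 230.2, 256 and 239 CPM, and PSMB8, another, rose by 1.48 on the log2 scale. TAP2, the partner of TAP1, went from 158, 160.1 and 145 CPM to 380.1, 385 and 385 CPM. NLRC5, the transactivator of class I genes, rose by 1.71 from a low level of 1.46 ± 0.472 CPM (SD, n = 3). Of the class I molecules, HLA-E, HLA-F and HLA-C rose by 0.94, 1.29 and 0.51, and HLA-B and B2M did not pass. Reads of these related HLA genes may be split between them, which makes their separate values uncertain. PSMB10, the remaining immunoproteasome catalytic subunit, was the member that fell, by 0.72.

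Promoters of these genes are shown for the interferon response element, since interferon is the textbook inducer of this group. Its letter pattern was searched as 2 GAAA separated by any 2 bases, on either strand. It lay in 9 of 17 class I promoters on record (52.9%), in 24 of 35 promoters of interferon-stimulated genes (68.6%) and in 2.80% of the 12318 promoters of tested genes. The windows are those of TAP1 (chr6:32853655-32853954, minus strand), PSMB9 (chr6:32853942-32854241, plus strand), which starts next to TAP1 in the opposite direction, and TAP2 (chr6:32838690-32838989, minus strand); capitals mark its matches on either strand.
TAP1: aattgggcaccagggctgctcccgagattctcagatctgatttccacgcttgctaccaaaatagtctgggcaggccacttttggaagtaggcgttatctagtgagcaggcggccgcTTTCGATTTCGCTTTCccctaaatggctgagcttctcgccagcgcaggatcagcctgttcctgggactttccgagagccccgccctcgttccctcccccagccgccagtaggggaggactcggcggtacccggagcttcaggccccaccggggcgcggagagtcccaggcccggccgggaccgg
PSMB9: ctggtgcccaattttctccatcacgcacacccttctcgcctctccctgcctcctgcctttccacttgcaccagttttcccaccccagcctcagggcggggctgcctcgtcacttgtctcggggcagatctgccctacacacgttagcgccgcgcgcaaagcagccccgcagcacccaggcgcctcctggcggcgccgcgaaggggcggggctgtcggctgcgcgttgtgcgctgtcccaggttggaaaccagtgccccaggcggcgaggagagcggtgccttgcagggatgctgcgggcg
TAP2: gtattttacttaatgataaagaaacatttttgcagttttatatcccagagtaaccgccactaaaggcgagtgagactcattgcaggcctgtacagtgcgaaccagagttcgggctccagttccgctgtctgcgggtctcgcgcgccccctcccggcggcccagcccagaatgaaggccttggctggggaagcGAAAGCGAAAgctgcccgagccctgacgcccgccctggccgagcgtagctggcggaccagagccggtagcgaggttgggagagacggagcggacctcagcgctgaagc
TAP1 holds 2 overlapping matches, TAP2 a single match and PSMB9 none.

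Interferon-stimulated genes were more divided in PRT3789 than the MHC class I genes. Of 46 tested 15 rose and 10 fell in PRT3789, with a median of 0.18, and in the reduced set the median turned to -0.08, with 11 of 48 higher and 10 lower. In DMSO 6 of the 46 rose and 6 fell, with a median of -0.14. The difference of the time changes lay above 0 for 35 of the 46 and below 0 for 11, with a median of 0.33. It was called higher with PRT3789 for 9 and lower for 5. In the reduced set the difference lay above 0 for 27 of 48 and below 0 for 21, with a median of 0.11. IRF1, a transcription factor of interferon signalling, rose in PRT3789 from 49.9, 46.0 and 49.6 CPM to 165, 159 and 170.1 CPM (log2 fold change 1.77 ± 0.07, edgeR adjusted p = 4.28e-09). The RNA sensors DDX58 and IFIH1 rose by 1.21 and 0.88 on the log2 scale. GBP2, an interferon-induced GTPase, went the other way, from 32.3, 36.9 and 29.2 CPM to 3.63, 2.32 and 2.12 CPM, while in DMSO it had 51.9, 49.9 and 51.8 CPM and then 58.8, 59.8 and 59.8 CPM. Its relatives GBP1 and GBP3 rose by 1.09 and 0.93. The antiviral genes IFIT1, IFI44, OASL and HERC5 fell by 0.69, 1.24, 1.45 and 0.78, and ISG15 and MX1 did not pass. Transcription factors and feedback genes of NF-kB were among the members that rose in a list where 9 of 30 rose and 7 fell (4 fell without the third PRT3789 library of 6 h or the first or second of 48 h, and 4 of 28 in the reduced set): NFKB2 went from 41.0, 45.7 and 37.5 CPM to 134, 125 and 127 CPM, RELB rose by 0.97 and BIRC3, an inhibitor of apoptosis, by 1.45. Falls in that list were cytokines and the checkpoint ligand CD274, which encodes PD-L1: IL32 went from 26.4, 30.4 and 31.3 CPM to 3.45, 1.37 and 1.66 CPM, CD274 fell by 0.84, and CXCL8, IL1A and IL6 belong to the sets that were near 0 in part of the libraries.

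The largest rises that exceeded those of DMSO were chosen by size among genes whose libraries of 6 and 48 h did not overlap. FSTL5, a secreted protein related to follistatin (chr4:161383897-162164000), went from 0.784, 0.917 and 0.385 CPM to 23.8, 24.6 and 25.4 CPM, the largest log2 fold change of these at 5.14 ± 0.25 (SE; edgeR adjusted p = 1.64e-08). It reached 44.5, 43.6 and 38.9 CPM at 72 h and did not pass in DMSO. GASK1B, a Golgi protein of the FAM198 family (chr4:158124474-158173025), rose from 9.78, 9.38 and 7.80 CPM to 166, 185 and 183 CPM and was 263, 287 and 245 CPM at 72 h. EPAS1, the hypoxia-inducible factor HIF-2 alpha (chr2:46297407-46386697), went from 105, 117 and 85.2 CPM to 935, 926 and 951 CPM, a log2 fold change of 3.20 against 1.01 in DMSO. ADM, adrenomedullin, a known hypoxia-responsive gene, rose by 2.39 on the log2 scale, although the glycolysis and hypoxia list was divided, with 17 of 39 higher and 11 lower (11 of 38 and 8 in the reduced set). SCD, the desaturase that makes oleic acid, had 415, 420.4 and 304 CPM and then 2946, 2935 and 2971 CPM, and rose in DMSO too, by 2.04. Transcriptional regulators among the rises were PLAGL1, a zinc finger protein, from 25.9, 27.5 and 28.2 CPM to 184, 189.6 and 190.4 CPM, HNF4G, a nuclear receptor, by 3.43, and VGLL2, a cofactor of TEAD factors, by 3.42 on the log2 scale. The other rises were HIVEP2-DT, TLCD2, B3GALT2, HMCN1, FREM2, SEMA5A and ANKS1B, with log2 fold changes from 2.89 (ANKS1B) to 3.38 (HIVEP2-DT). Of the corresponding falls not yet described, KISS1, the kisspeptin precursor, fell by 4.64, GAL, the neuropeptide galanin, by 4.95, and TGM2, transglutaminase 2, by 3.54. SERPINB7, SERPINE2 and TSPAN1 fell by 3.94, 3.75 and 3.72 on the log2 scale.

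Growth factor signalling genes changed in both directions, among ligands and among receptors. Over all tested genes, 25.8% were called higher and 26.5% lower in PRT3789. Of 38 tested receptor tyrosine kinases and ligands 14 rose and 7 fell (median 0.18), and 9 of 39 rose and 6 fell in the reduced set. In DMSO 11 of the 38 rose and 2 fell, and the difference was called higher with PRT3789 for 7 and lower for 9. The median of that difference was 0.02 with every library and 0.19 in the reduced set. KITLG, the ligand of the receptor KIT, went from 55.7, 47.2 and 40.2 CPM to 155, 160.4 and 158 CPM in PRT3789. It was 30.1, 23.7 and 23.4 CPM in DMSO at 6 h and 22.8, 19.9 and 24.4 CPM at 48 h. NRG1, a ligand of ERBB3 and ERBB4, rose from 18.6, 18.8 and 20.7 CPM to 48.4, 47.6 and 44.8 CPM without a call in DMSO (edgeR adjusted p = 0.768). Of receptors, EGFR rose from 221 ± 50.1 CPM (SD, n = 3) to 858 ± 27.7 CPM, a log2 fold change of 1.96, and MET by 0.83, while FGFR2 and EPHB2 fell by 1.11 and 1.02. FGFBP1, a carrier that frees fibroblast growth factors from the matrix, went from 12.1, 12.2 and 17.6 CPM to 1.42, 1.66 and 1.23 CPM. In the Hedgehog pathway, where PTCH1 and SMO are the receptor and its partner and GLI1 and HHIP are targets, GLI1 rose from 4.80, 5.36 and 4.72 CPM to 19.0, 15.4 and 17.4 CPM and HHIP, PTCH1 and SMO by 1.97, 1.35 and 0.79 on the log2 scale. GLI1 stood at 1.90, 2.19 and 1.44 CPM in DMSO at 6 h, below the treated libraries of that time. Of the 42 tested Hedgehog and Wnt genes 12 rose and 9 fell (9 and 6 of 44 in the reduced set). In DMSO 13 of the 42 rose and 0 fell, and the difference was called lower with PRT3789 for 11 and higher for 3. The median of that difference was -0.24 with every library and -0.14 in the reduced set. Falls in PRT3789 included SFRP1, a secreted Wnt antagonist, from 154, 152 and 114 CPM to 26.1, 28.8 and 25.6 CPM. DKK1, another, fell by 0.94, and the ligands WNT7A and WNT16 by 1.50 and 4.06.

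Several groups rose in both treatments, in part to a different degree. Of 13 tested AP-1 factors 10 rose and 1 fell, against 9 and 1 in DMSO, and the difference was called higher for 3 and lower for 1: JUN went from 40.6, 39.3 and 40.9 CPM to 126, 138 and 142 CPM in PRT3789 and from 40.6, 39.0 and 41.3 CPM to 125, 148 and 114 CPM in DMSO. FOSB and EGR1, immediate early genes, rose by 2.30 and 2.20 on the log2 scale in PRT3789 and by 2.73 and 2.42 in DMSO, with no call in the difference. ATF3 and KLF4, of the same families, rose beyond DMSO, by 1.52 and 1.83 in the difference. DUSP6, a phosphatase that feeds back on MAP kinases, rose by 1.95 in PRT3789 and 1.99 in DMSO. Of 32 tested YAP/TEAD targets 16 rose and 5 fell in PRT3789 and 16 and 0 in DMSO, and the difference was called lower with PRT3789 for 8 and higher for 1. The summed level of these targets was 9935 to 10540.3 CPM in the PRT3789 libraries of 6 h and 7200.4 to 7238 CPM in those of 48 h. In DMSO it was 9839 to 9999 and then 11100.0 to 11776 CPM. The sum was thus lower at 48 h in PRT3789 and higher in DMSO, but abundant members weigh most in a sum. Over the 32 genes the median log2 fold change was above 0 in both, 0.34 in PRT3789 and 0.41 in DMSO. The median of their difference was -0.19 with every library and -0.09 in the reduced set. The rise of CCN2, a matricellular TEAD target, was smaller with PRT3789: it went from 68.2, 69.1 and 68.1 CPM to 119, 129 and 139 CPM, and in DMSO from 93.6, 84.2 and 91.2 CPM to 321, 370.4 and 353 CPM (difference -1.02 ± 0.11, edgeR adjusted p = 9e-05). IGFBP3, an insulin-like growth factor binding protein, fell by 1.33 in PRT3789 and did not pass in DMSO. Of 26 tested genes of cholesterol synthesis 13 rose and 5 fell (3 fell without the third PRT3789 library of 6 h or of 48 h), against 17 and 0 in DMSO, and the difference was below 0 for 23 of the 26 and called lower for 5 and higher for 1. In the reduced set, 7 of these rose and 3 fell in PRT3789 and 15 and 0 in DMSO. There the YAP/TEAD targets that rose numbered 11 in PRT3789 and 6 in DMSO, and the AP-1 factors 9 and 5 of 15 tested. NEAT1, a nuclear long non-coding RNA, rose by 2.08 in PRT3789 and 2.01 in DMSO.

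Many abundant housekeeping transcripts fell in PRT3789, and fewer were called in DMSO, but the difference of the time changes was called for few of them. Of 76 ribosomal protein genes 75 fell in PRT3789 (median -0.91) and 38 in DMSO (median -0.62), with no call in the difference by edgeR. The DMSO count depended on single libraries, from 1 without the first DMSO library of 48 h to 75 without the first of 6 h. RPLP0, a ribosomal stalk protein, had 2629, 2288 and 3482 CPM at 6 h, highest in the third library, and 1324, 1412 and 1314 CPM at 48 h. Of 48 nuclear genes of oxidative phosphorylation 32 fell (15 in DMSO), of 35 proteasome and VHL ligase genes 31 fell (27 in DMSO), and of 21 heat shock proteins and chaperones 16 fell (12 in DMSO, 5 without the second DMSO library of 48 h), with no rise in any of these lists. Without the third PRT3789 library of 6 h, 20 of the oxidative phosphorylation genes were called lower, and in DMSO the count ran from 3 without the second library of 48 h to 40 without the first of 6 h. None of the oxidative phosphorylation or proteasome and VHL ligase genes was called in the difference, and 2 of the 21 heat shock proteins and chaperones were called lower there. Of 13 mitochondrially encoded genes 12 rose (10 in DMSO, none called in the difference), for example MT-ND5, a subunit of complex I, from 924, 1189.9 and 1083 CPM to 2909, 2743 and 3133 CPM. Transcript length moved with these values: the correlation across genes of length with a library's deviation from the mean (Spearman's rho, a description) was -0.150, 0.123 and -0.500 in the PRT3789 libraries of 6 h and 0.291, 0.256 and 0.286 at 48 h. In the DMSO libraries it was 0.202, -0.417 and -0.474 at 6 h and 0.285, -0.0426 and 0.0314 at 48 h. When genes were divided by transcript length into 4 classes of equal size, the class of the shortest had a median log2 fold change of -0.31 (506 higher, 1500 lower) and that of the longest 0.27 (1453 higher, 510 lower). With that trend removed 65 of the 76 ribosomal protein genes and 22 of the 48 oxidative phosphorylation genes were still called lower. With the reduced set, 22 and 13 were, along with 22 of the 35 proteasome and VHL ligase genes and 13 of 20 heat shock proteins and chaperones. In DMSO, where this leaves 1 library of 48 h, 3 proteasome and VHL ligase genes and none of the ribosomal protein, oxidative phosphorylation and heat shock genes were called lower, and none of the mitochondrially encoded genes higher, with medians of -0.43, -0.52, -0.29, -0.26 and 0.33 in that order.

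Some genes were called in opposite directions in the 2 treatments, 37 with a rise in PRT3789 (0.232%) and 210 with a fall (1.32%). Others were called in DMSO and in the difference and not in PRT3789, 168 with a rise in DMSO (1.05%) and 57 with a fall (0.358%). Among those that rose in PRT3789, RGS2, a regulator of G protein signalling, went from 13.7, 11.7 and 18.3 CPM to 53.6, 63.3 and 56.3 CPM, and in DMSO from 8.61, 10.5 and 11.6 CPM to 6.79, 7.37 and 6.42 CPM. The DMSO call of RGS2 was lost without the second or the third DMSO library of 6 h or the first or the third of 48 h (edgeR adjusted p = 0.0548 to 0.0706). GASK1B fell in DMSO by 0.73 on the log2 scale. Among those that fell, ALPP, a placental alkaline phosphatase with close relatives that may share its reads, went from 14.3, 14.2 and 10.8 CPM to 1.57, 1.24 and 0.894 CPM while it rose in DMSO from 17.6, 14.6 and 12.3 CPM to 49.5, 41.6 and 39.0 CPM. L1CAM, a cell adhesion molecule of neurons and some carcinomas, went from 41.7, 51.1 and 32.0 CPM to 7.08, 5.02 and 4.97 CPM in PRT3789 and from 47.5, 33.8 and 32.1 CPM to 90.2, 82.7 and 68.5 CPM in DMSO. CACNG4, a calcium channel subunit, and PROM2, a protein of membrane protrusions, also fell by 3.33 and by 2.98 in PRT3789 and rose by 0.65 and 0.96 in DMSO. ATP6V1B1, a subunit of the vacuolar proton pump, likewise fell from 5.62, 5.71 and 4.19 CPM to 1.07, 0.953 and 0.563 CPM and rose in DMSO from 7.37, 7.32 and 6.93 CPM to 32.5, 32.5 and 29.6 CPM. In the reduced set, which leaves 1 DMSO library of 48 h, the DMSO calls of GASK1B, VTCN1, CACNG4, PROM2, L1CAM and NLRP3 were lost.

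Levels at 72 h, given without a test, lay near those at 48 h for most of the genes above and farther on for some. TAP1 had 1593, 1494 and 1591 CPM at 72 h, and EPAS1 1021, 1054 and 1022 CPM. KITLG continued to 217, 224 and 198 CPM, and SPARC to 30.9, 30.1 and 26.3 CPM. SCD, by contrast, was at 1929, 1906 and 1839 CPM, below its 48 h libraries. KRT81 had 211, 211 and 201 CPM and KRT80 22.7, 20.7 and 16.3 CPM.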

How the data were processed

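RNA sequencing counts of NCI-H1693 cells were analysed for 18 libraries in 6 groups. The authors deposited RSEM expected counts per gene symbol, which were already whole numbers, so no rounding was needed. They came from nf-core/rnaseq 3.17.0 with Trim Galore, STAR and RSEM on GRCh38 (NCBI p14, release 110), per the labels and the series' design text. The table held 43236 symbols, of which 16043 were at 0 in every library and 15940 passed edgeR's filterByExpr. Genes that did not pass held at most 0.0575% of a library's counts.

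The 12 libraries of 6 and 48 h were fitted together with 1 mean per group (edgeR 4.0.16, R 4.3.3, TMM factors, robust quasi-likelihood F test, two-sided). The 3 contrasts were 48 h against 6 h in PRT3789, the same in DMSO, and their difference, with Benjamini-Hochberg adjustment over all tested genes and a threshold of 0.05. The standard error is the size of the log2 fold change divided by the square root of F. CPM use TMM factors over all 18 libraries. The scripts were tested on simulated data.

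Named by size, among genes that reached 5 CPM on average in the 6 PRT3789 libraries, with a call in PRT3789 and groups without overlap, were the 15 largest rises and falls also called in the difference, the 8 largest each shared with DMSO, and the 5 largest each in opposite directions. The 4 smallest p-values in each of 40 gene lists were named whatever their level, and SMARCA2, SMARCA4, KRT80 and PLAU were added. Other list members are given with their values where a list is described. The comparison, its lists and their members were chosen with earlier results of these data known. Of 1344 list symbols 1328 were in the table. Some results are not reported here. For the sets near 0 in part of the libraries, genes were selected where the highest of a group exceeded the lowest more than 5 times (with 0.1 CPM added to each). The highest of all libraries had also to exceed 1 CPM, and 225 genes met both conditions. A library was high in a gene if it exceeded the gene's highest CPM divided by 3. The 3 sets hold the selected genes that were high in exactly the same libraries as KRT14, CLEC4E or SFTPA2. The rest of the 225 genes were not set aside.

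Alternatives were other scalings and filters, DESeq2 1.42.0, limma-voom (limma 3.58.1) with and without quality weights, other library selections, a replicate block, removal of the length trend, stricter thresholds and leaving out each library. Figures used matplotlib 3.10.9 in Python 3.11.15. Promoter windows and gene positions are from RefSeq, GRCh38.p14. Transcript lengths are those of the canonical transcript in GENCODE and were on record for 92.6% of tested genes.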

Additional observations from a re-analysis of the deposited data

Results flagged for a closer look

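The test of the difference between the time changes itself passed for 932 genes higher and 1333 genes lower with PRT3789 (edgeR). The named genes with opposite calls in the 2 treatments are set out here because both their effects and the difference passed. The difference, PRT3789 minus DMSO on the log2 scale, was 5.04 for GASK1B, 2.58 for RGS2, 1.63 for NPFFR2, a neuropeptide FF receptor, 1.24 for HES4, a basic helix-loop-helix repressor, and 1.06 for NLRP3, an inflammasome sensor. It was -5.71 for VTCN1, -4.94 for ALPP, -3.98 for CACNG4, -3.94 for PROM2 and -3.94 for L1CAM.

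NPFFR2 went from 2.76, 3.42 and 3.46 CPM to 6.44, 7.21 and 7.22 CPM in PRT3789 and from 3.10, 3.14 and 3.39 CPM to 2.30, 1.77 and 2.75 CPM in DMSO. Its DMSO call was lost without the second or the third DMSO library of 6 h or the first or the second of 48 h (edgeR adjusted p = 0.072 to 0.157). HES4 went from 18.6, 21.8 and 31.3 CPM to 36.9, 35.4 and 36.4 CPM in PRT3789, a call lost without the first PRT3789 library of 6 h (edgeR adjusted p = 0.0652), and its DMSO call was lost without the second or the third DMSO library of 6 h or the first or the third of 48 h (edgeR adjusted p = 0.0729 to 0.0864). NLRP3 went from 4.87, 5.89 and 4.96 CPM to 6.44, 7.59 and 8.08 CPM in PRT3789 and from 8.44, 7.57 and 7.63 CPM to 6.22, 4.99 and 4.92 CPM in DMSO.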

How the results depend on the processing

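Depth and 3 libraries per group limit what could be called. The calls in PRT3789 were kept for 81.7 to 99.6% of genes under the alternative scalings, filters, tools and library selections fixed at the start, while counts in DMSO and in the difference moved more, and the cause was not tested. A change of at least 2-fold in PRT3789 was called for 1269 genes higher and 1245 lower. In DMSO the number called higher was 4161 with quality weights, 1262 at an adjusted p under 0.01 and 455 at 2-fold. The number called lower in DMSO was 1565 with total counts, 4093 with quality weights, 1625 from the 6 libraries alone, 1251 at 0.01 and 231 at 2-fold. In the difference the number higher was 2384 with quality weights, 1438 with all 18 libraries, 457 at 0.01 and 333 at 2-fold, and the number lower 2665, 750 and 626 with quality weights, at 0.01 and at 2-fold.

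With each library left out in turn, PRT3789 gave 3333 to 3995 genes higher and 3569 to 4180 lower. DMSO gave 1594 to 3120 higher and 1481 to 3267 lower, with 1556 and 1481 lower without the first and second DMSO library of 48 h. The difference gave 593 to 976 higher and 1001 to 1474 lower, the 593 without the first PRT3789 library of 48 h.

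Both selections by KRT14, CLEC4E and SFTPA2 were chosen after seeing the data, and a lone library is assumed there to vary like the other groups. Without the libraries high in KRT14 or CLEC4E, 2356 and 2650 genes were called in PRT3789, 564 and 367 in DMSO, and 195 and 405 in the difference, higher and lower. With the SFTPA2-low libraries of PRT3789 at 48 h left out too, which leaves 1 PRT3789 library at each time, both high in SFTPA2, the counts were 238 and 362, 6 and 4, and 2 and 19. There 8312 of the 8341 genes called in PRT3789 were tested and kept their sign, their log2 fold changes moved by a median of 0.0809, and 7.19% kept their call.

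With the trend of transcript length removed, SEC11C, a signal peptidase subunit, reversed in PRT3789 from -0.09 (edgeR adjusted p = 0.71) to 0.39 (0.00131). Of the rises listed as exceeding DMSO, TLCD2 lost its call in the difference under 8 of 25 alternatives.

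Same-numbered PRT3789 libraries of 6 and 48 h did not deviate together (correlations 0.0135, -0.237 and -0.0694), so in PRT3789 they share only a number. Same-numbered DMSO libraries had correlations of 0.512, 0.280 and 0.229. Unlike-numbered DMSO libraries ranged from -0.395 to 0.241, the highest being the third of 6 h with the second of 48 h. The DMSO values therefore do not show that the numbers pair libraries. A replicate block within each treatment gave 4318 higher and 4326 lower in PRT3789, 2587 and 2634 in DMSO, and 953 and 1334 in the difference. A replicate block over all libraries gave 4323 and 4382, 2605 and 2772, and 1050 and 1420.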

Other observations

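Some genes moved with time in DMSO and not with PRT3789. The examples, from the genes called in DMSO and in the difference and not in PRT3789, were chosen after their values were seen. SNAI2, the repressor Slug of epithelial-mesenchymal transition, went from 4.30, 4.96 and 4.70 CPM to 11.9, 11.7 and 13 CPM in DMSO and had 3.24, 3.21 and 2.87 CPM and then 2.49, 2.74 and 2.55 CPM in PRT3789. ADAMTSL4, a matrix protein, went from 7.04, 6.86 and 6.28 CPM to 27.4, 26.8 and 21.9 CPM in DMSO and had 6.17, 8.04 and 6.50 CPM and then 7.58, 7.30 and 7.29 CPM in PRT3789. FAP, fibroblast activation protein, fell by 0.67 on the log2 scale in DMSO and KLF11, a TGF-beta-inducible zinc finger factor, by 0.56, with differences of 0.85 and 0.86.

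Further lists showed no common direction in PRT3789. Of 45 tested TGF-beta and BMP genes 14 rose and 10 fell, with 9 rising without the first PRT3789 library of 48 h. The difference was lower for 13 and higher for 4. Without the libraries high in KRT14 or CLEC4E 7 rose and 6 fell, with a difference lower for 4 and higher for 2. FST, follistatin, an activin antagonist, fell by 2.04 on the log2 scale, and its relative FSTL3 rose by 0.79. Of 36 tested genes of the unfolded protein and integrated stress response 12 rose and 10 fell: CHAC1, a glutathione-degrading enzyme, rose by 1.61 and SHMT2, of mitochondrial folate metabolism, fell by 1.11. Of 32 tested polycomb genes 10 rose (5 without the third PRT3789 library of either time) and 8 fell, among them EZH2, the methyltransferase, by 1.08, and EED, its partner, by 0.99. Of 27 tested apoptosis regulators 7 rose and 10 fell, with MCL1, an anti-apoptotic protein, higher by 0.65. Without the libraries high in KRT14 or CLEC4E the stress response genes that rose and fell numbered 6 and 6, the polycomb genes 2 and 7, and the apoptosis regulators 4 and 6.

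Among 28 tested NRF2 targets and antioxidant genes, 14 fell and 2 rose, the rises numbering 0 to 6 under the alternatives. Of 34 tested genes of the vacuolar proton pump and lysosome 13 fell and 6 rose, with the cathepsins CTSZ and CTSB lower by 1.43 and 1.03. Of 36 tested genes of fatty acid and lipid metabolism 16 rose and 5 fell, the falls numbering 2 without the third PRT3789 library of 48 h, and FADS2, a fatty acid desaturase, rose by 1.14. Of 26 MAPK feedback genes 13 rose and 4 fell, against 17 and 0 in DMSO. Of 24 lung and endoderm lineage genes 6 rose and 4 fell, with MUC1, a membrane mucin, higher by 2.68. Of 15 neuroendocrine and neuronal genes 6 rose (3 without the third PRT3789 library of 6 h) and 4 fell, with SYP, synaptophysin, higher by 1.89 and MAP2, a neuronal microtubule protein, by 1.48. Without the libraries high in KRT14 or CLEC4E the risen and fallen members numbered 3 and 10 of the lysosome list, 10 and 4 of the fatty acid list, 12 and 2 of the MAPK feedback list (9 and 0 in DMSO), 6 and 1 of the lung and endoderm list and 3 and 4 of the neuroendocrine and neuronal list.

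The PRT3789 libraries of 6 h varied more among themselves than those of 48 h. The median over genes of the SD of log2 CPM was 0.162 at 6 h and 0.0746 at 48 h. Ribosomal protein genes held 8.41% ± 1.99 of the counts (SD, n = 3) at 6 h and 5.08% ± 0.265 at 48 h in PRT3789, and 8.94% ± 2.40 and 6.41% ± 0.777 in DMSO. The deposited counts of the third DMSO library of 48 h sum to exactly 27000000, and no label explains this.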
